A study of Mus musculus with 4 samples.

Results

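The 8 genes of the tumor necrosis factor (TNF) superfamily described here were followed by cell class through the injured, uninjured and neonatal mouse sciatic nerve: the ligands Tnf, Tnfsf8, Tnfsf9, Tnfsf10 and Tnfsf12 and the receptors Tnfrsf12a, Tnfrsf1a and Tnfrsf1b. They were taken by gene symbol, with earlier results of these data known, and make 8 of the 22716 genes listed over the 4 count matrices. All 8 were listed in every matrix. Cells were profiled by Drop-seq, in which single cells are caught in droplets with barcoded beads and each mRNA molecule is counted once through its unique molecular identifier (UMI). All 4 libraries came from wildtype CD1 mice whose nerves were dissociated with collagenase and trypsin. The injured library (3 DPI, 3 days post-injury) held the distal segment of adult nerve after unilateral resection, cleared with myelin removal beads, and the uninjured adult library was cleared in the same way. The neonatal FACS library came from P3-P4 pups and was sorted, and the neonatal beads library came from P2-P3 pups and was cleared with beads. Each condition and preparation is 1 library, so no test between conditions was possible, cells are not replicates, and the conditions also differ in everything else that differs between single libraries. Intervals below are exact 95% intervals that cover counting error only.

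Ligands of the TNF superfamily are mostly made as membrane proteins that assemble in trimers, act on neighboring cells and can be shed by proteases such as ADAM17. Their receptors either carry a death domain and can start apoptosis, or recruit TRAF adaptors that switch on NF-κB and MAP kinases. TNF itself is an early inflammatory cytokine that binds TNFR1 (Tnfrsf1a) and TNFR2 (Tnfrsf1b), and in cut peripheral nerve it has been tied to macrophage recruitment during Wallerian degeneration. TWEAK (Tnfsf12) binds Fn14 (Tnfrsf12a), a small receptor known for its induction in injured tissue. TRAIL (Tnfsf10) binds death receptors, while CD30L (Tnfsf8) and 4-1BBL (Tnfsf9) are best known as costimulators of lymphocytes.

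After filtering, 2189 cells were kept at 3 DPI, 1843 in uninjured nerve, 2216 in the neonatal FACS and 5422 in the neonatal beads library, with medians of 1821, 1632, 1573 and 997 UMIs per cell. Cells were clustered without the superfamily genes and named from marker genes as endoneurial-like, epineurial/perineurial-like, endothelial-like, VSM/pericyte-like, Schwann-like or immune-like. In the endothelial-like class 6 of 6 markers were found in at least 5% of cells in each library, and in the Schwann-like class 7 of 7, with 6 of 7 in the neonatal beads library. The immune-like class held 478 cells at 3 DPI and 80 in the neonatal FACS library but only 19 in uninjured nerve and 38 in the neonatal beads library, so no immune-like ratio between conditions was formed. No name was given to 1 cluster of 40 cells at 3 DPI, led by S100a9, S100a8 and Il1b, whose cells were shallow (median 442 UMIs). Mesenchymal marker RNA was found outside the mesenchymal classes too, and the 5 mesenchymal markers summed to 5237 CPM (UMIs of a gene per 1000000 UMIs of its class) in 3 DPI Schwann-like cells and 2174 CPM in 3 DPI immune-like cells, against 36570 CPM in endoneurial-like cells. Barcodes shared between pairs of libraries numbered 0 to 3.

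On the mouse build GRCm38 (mm10), 3 of the members lie on chromosome 17: Tnf at chr17:35199381-35202007 on the minus strand, Tnfsf9 at chr17:57105325-57107757 on the plus strand and Tnfrsf12a at chr17:23675445-23677468 on the minus strand. Tnfsf8 (chr4:63831308-63861347) and Tnfrsf1b (chr4:145213463-145246870) both lie on the minus strand of chromosome 4. Tnfsf10 is at chr3:27317028-27342427 on the plus strand, Tnfsf12 at chr11:69686250-69695849 on the minus strand and Tnfrsf1a at chr6:125349362-125362484 on the plus strand. Tnfsf9 is overlapped on the other strand by Gm11110, which is also a row of the matrices, and Tnfsf12 by the readthrough gene Tnfsfm13 on the same strand and Tnfsf13os on the other. The strand setting of the counting is not known here, so counts of Tnfsf9 and Tnfsf12 could include molecules of these neighbors.

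The bases just upstream of the start of Tnf and Tnfrsf12a are shown because Tnf led the immune-like cells at 3 DPI and Tnfrsf12a had the largest ratios after injury among the pairs of member and class with at least 20 UMIs. Sequences are from RefSeq on GRCm38.p6, 250 bases before the annotated start, read 5′ to 3′ along the gene, at chr17:35202008-35202257 and chr17:23677450-23677699, both minus strand. Capitals mark matches to the κB letters GGGNNNNNCC and the TATA box letters TATAAA, searched on both strands.
Tnf: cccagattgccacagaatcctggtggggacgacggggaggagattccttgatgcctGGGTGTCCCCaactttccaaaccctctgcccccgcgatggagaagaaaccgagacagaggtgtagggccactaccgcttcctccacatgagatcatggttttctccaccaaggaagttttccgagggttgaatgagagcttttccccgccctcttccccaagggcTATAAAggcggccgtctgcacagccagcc
Tnfrsf12a: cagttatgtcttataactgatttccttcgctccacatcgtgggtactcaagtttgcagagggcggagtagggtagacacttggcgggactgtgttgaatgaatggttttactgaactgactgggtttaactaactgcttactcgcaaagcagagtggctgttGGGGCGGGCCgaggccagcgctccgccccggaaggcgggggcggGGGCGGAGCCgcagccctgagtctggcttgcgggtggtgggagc
The Tnf window held GGGTGTCCCC beginning 194 bases before the start and TATAAA beginning 29 bases before it. The Tnfrsf12a window held 2 κB matches, GGGGCGGGCC and GGGCGGAGCC, beginning 88 and 44 bases before the start. Among the 6 members with an upstream sequence (all but Tnfsf9 and Tnfsf12), 4 held the κB letters, which occurred in 45.8% of 32851 such windows over all promoters. These windows lie before the RefSeq starts, which are not always the ends of the gene positions given above. By those positions the Tnfrsf1a window lies inside the gene, and the Tnfsf8 and Tnfsf10 windows overlap theirs in part. TATAAA occurred in 1 of 6 members and 12.4% of all windows, and the AP-1 letters TGANTCA in 0 of 6 members and 6.75% of all windows. These are matches of letters only.

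Among classes of at least 50 cells, Tnf was highest in immune-like cells at 3 DPI and in the neonatal FACS library. At 3 DPI 51 of 478 immune-like cells held a Tnf UMI (10.7%, 8.05% to 13.8%), and the class reached 191 CPM (157 to 230, 111 UMIs). That was 49.3% of the 225 Tnf UMIs of kept 3 DPI cells, and the unnamed cluster held a further 25.8%. In the neonatal FACS library 6 of 80 immune-like cells held a Tnf UMI, with 48.8 CPM (22.3 to 92.6). The small immune-like classes of uninjured nerve (2 of 19 cells) and of the neonatal beads library (3 of 38 cells) gave 98.4 CPM (11.9 to 355) and 75.7 CPM (15.6 to 221), and their intervals overlap all the others. Both held more neutrophil marker RNA than the 3 DPI immune-like class, which leaves out the unnamed cluster rich in it. The classes are therefore not alike in their cells. In the other 5 classes Tnf was low at 3 DPI, from 5.80 CPM in endoneurial-like to 10.8 CPM (3.50 to 25.2) in Schwann-like cells, and the immune-like level was 17.7-fold (7.35 to 55.5) that of the Schwann-like class. Schwann-like cells held a Tnf UMI in 5 of 143 cells (3.50%) at a median of 1925 UMIs, deeper than the 927 of immune-like cells. With every cell thinned to 500 UMIs the shares were 6.45% in immune-like and 0.448% in Schwann-like cells.

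Outside the immune-like class Tnf was at or near 0 in the other libraries. Uninjured nerve held 0 Tnf UMIs in 417 endoneurial-like and 361 Schwann-like cells, 3 in epineurial/perineurial-like cells, all from 1 cell, and 2 in endothelial-like cells. The neonatal beads library held 0 in 3674 Schwann-like cells, and the FACS library 0 in 1234. At 3 DPI the corresponding classes held 9 UMIs (endoneurial-like), 28 (epineurial/perineurial-like), 12 (endothelial-like) and 5 (Schwann-like). The classes differ in size, so levels are compared in CPM. Endothelial-like cells were at 10.7 CPM (5.55 to 18.8) against 1.5 CPM (0.182 to 5.44), a ratio of 7.14 (1.59 to 65.6). That ratio rests on 12 against 2 UMIs, under the minimum of 20 UMIs set for the injury ratios below, and is not among them. In epineurial/perineurial-like cells the levels of 7.90 CPM (5.25 to 11.4) and 2.99 CPM (0.616 to 8.73) overlapped, with a ratio of 2.64 (0.817 to 13.6). Endoneurial-like cells were at 5.80 CPM (2.65 to 11) and Schwann-like cells at 10.8 CPM (3.50 to 25.2), and in both the interval holds the limits of 2.82 and 7.19 CPM that 3 UMIs give in uninjured cells, so no difference is shown there. Immune RNA moved the same way: the 8 immune markers summed to 43.8 to 62.6 CPM in 3 DPI endoneurial-like, endothelial-like and Schwann-like cells and to 2.40 to 11.3 CPM in uninjured ones, and the 6 neutrophil markers to 28.0 to 30.9 CPM against 2.40 to 3.76 CPM. Their part in the Tnf counts was not tested.

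Within the 478 immune-like cells at 3 DPI, clustered again without superfamily genes, Tnf was uneven. The 113 cells led by Cxcl3, Clec4e and Saa3 held Tnf in 30 cells (26.5%, 18.7% to 35.7%) at 584 CPM (459 to 733). The 52 cells led by Fabp5, Gpnmb and Atp6v0d2 held it in 12 cells at 173 CPM (112 to 256), and the 191 cells led by Ly86, Ccr2 and Fgd2 in 7 cells at 54.5 CPM (26.1 to 100.2). These 3 CPM intervals do not overlap. By share of cells the Fabp5 cluster was at 23.1% (12.5% to 36.8%), which overlaps the Cxcl3 cluster. The Ly86 cluster was at 3.66% (1.49% to 7.41%). The 39 cells led by Igkc, Ms4a1 and Cd209d gave 2 UMIs (39.8 CPM, 4.82 to 144). No UMI was found in the 83 cells led by Gzma, Nkg7 and Cpa3, where 3 UMIs would be 38.7 CPM, a limit that lies within the interval of the Ly86 cluster. Thinned to 500 UMIs, the Cxcl3, Fabp5 and Ly86 clusters gave 17.4%, 6.87% and 2.68% of cells with Tnf.

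**Figure D1:**
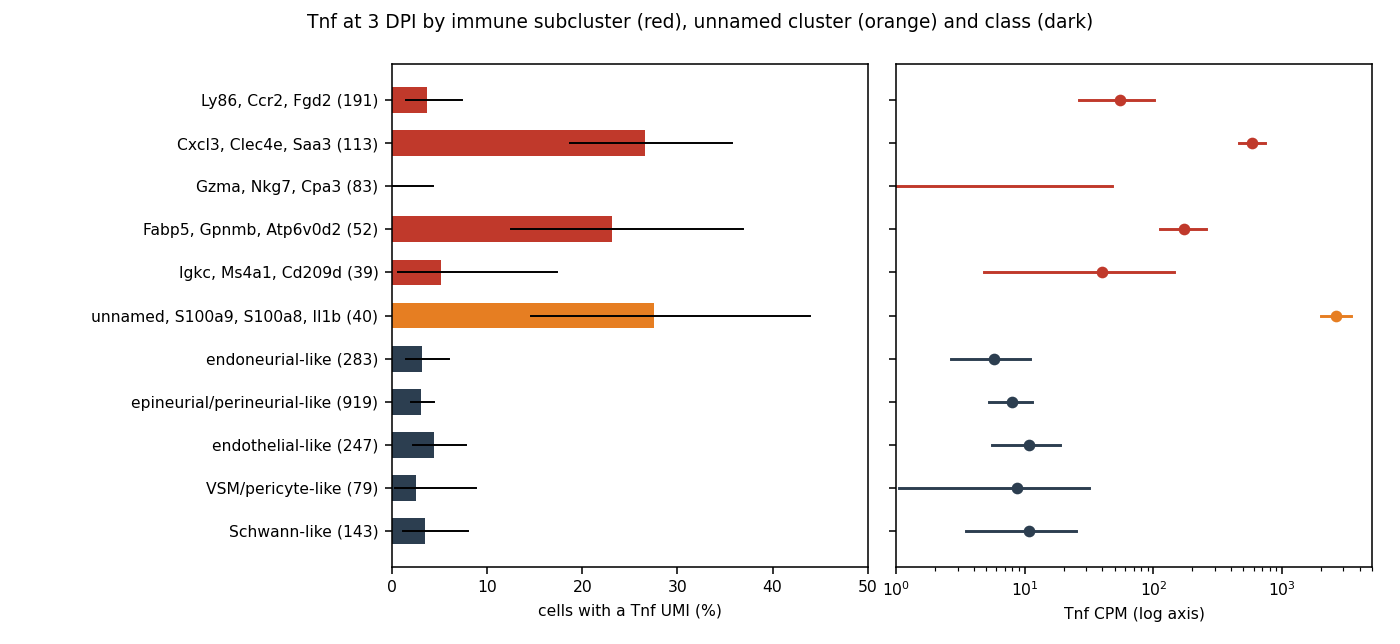
Tnf at 3 DPI, as the percent of cells with a Tnf UMI (left, bars with exact 95% intervals) and as CPM (right, log axis, points with exact Poisson intervals), in the 5 immune-like subclusters (red), the unnamed cluster (orange) and the other 5 classes (dark), with cells per row in parentheses. The cells led by Cxcl3 sit at 584 CPM, the unnamed cluster at 2640 CPM and the 5 other classes between 5.80 and 10.8 CPM. The 58 UMIs of the unnamed cluster came from 11 cells, with a mean over cells of 1556 CPM. An interval that runs past the axis is cut there.

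Tnfsf10, which codes for TRAIL, was found mainly in endothelial-like cells in all 4 libraries. Endothelial-like cells held 103 CPM at 3 DPI (85 to 124), 91.8 CPM in uninjured nerve (76.2 to 110.0), 32.1 CPM in the neonatal FACS library (16.6 to 56.0) and 39.0 CPM in the neonatal beads library (27.9 to 53.1). Both adult libraries were above both neonatal ones and the intervals of the 2 ages do not overlap. The endothelial-like class held 89.1%, 91.7%, 92.3% and 93.0% of all Tnfsf10 UMIs of kept cells in the 4 libraries in that order, from 12 of 13 UMIs in the FACS library to 122 of 133 in uninjured nerve.

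The share of endothelial-like cells with a Tnfsf10 UMI was 26.3% at 3 DPI, 20.2% in uninjured nerve, 7.48% in the neonatal FACS and 6.67% in the neonatal beads library. Thinned to 500 UMIs these became 5.86%, 4.28%, 2.12% and 2.61%. In Schwann-like cells 2 of 143, 1 of 361, 1 of 1234 and 1 of 3674 cells held one, and VSM/pericyte-like cells held none in any library. At 3 DPI endothelial-like and Schwann-like cells had similar depth, with medians of 1996 and 1925 UMIs. The endothelial-like level was 20-fold (6.67 to 98.3) that of the next class at 3 DPI and 19.6-fold (8.16 to 61.3) in uninjured nerve. The 3 larger uninjured endothelial-like clusters did not differ beyond their intervals in Tnfsf10, with 91.3 CPM (led by Slco1a4), 103 CPM (led by Rbp7) and 82.7 CPM (led by Darc).

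Tnfsf12, which codes for TWEAK, was found in all 6 classes in each library except the neonatal beads library, whose 38 immune-like cells held 0 UMIs. At 3 DPI it ran from 23.7 CPM in Schwann-like cells (11.8 to 42.5) to 103 CPM in immune-like cells (78.6 to 133), with 34.1, 48.8, 37.6 and 52.0 CPM in endoneurial-like, epineurial/perineurial-like, endothelial-like and VSM/pericyte-like cells. In uninjured nerve the order was turned: Schwann-like cells led with 93.5 CPM (66.5 to 128), but only 1.23-fold (0.817 to 1.82) above endoneurial-like cells at 76.0 CPM (60.4 to 94.5). In both neonatal libraries epineurial/perineurial-like cells led, at 45.1 and 69.4 CPM, by margins of 1.05-fold and 1.08-fold that their intervals do not separate. Schwann-like cells held 25.6 CPM (19.4 to 33.2) in the FACS and 21.9 CPM (17.6 to 27) in the beads library. For this ligand Schwann-like cells of uninjured adult nerve stood above those of the other 3 libraries, whose intervals overlap each other.

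Tnfrsf12a, which codes for the TWEAK receptor Fn14, had its top level among classes of at least 50 cells in Schwann-like cells in every library. It reached 496 CPM (434 to 565, 230 UMIs in 143 cells) at 3 DPI, 86.3 CPM (60.4 to 119, 36 UMIs in 361 cells) in uninjured nerve, 64.3 CPM (54.2 to 75.8) in the neonatal FACS library and 135 CPM (124 to 147) in the neonatal beads library. The 3 DPI value lay far above the other 3, and the 2 neonatal preparations did not overlap. Over the next class the ratio was 3.33 (2.77 to 4.02) at 3 DPI and 3.86 (2.75 to 5.57) in the beads library, while in uninjured nerve (1.36, 0.734 to 2.62) and the FACS library (1.40, 0.795 to 2.70) Schwann-like cells were not separated from VSM/pericyte-like cells.

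At 3 DPI 65 of 143 Schwann-like cells held a Tnfrsf12a UMI (45.5%, 37.1% to 54.0%) and in uninjured nerve 29 of 361 (8.03%, 5.45% to 11.3%). At 500 UMIs the shares were 18.6% and 4.04%, so the difference was present at equal depth. Immune-like cells at 3 DPI held one in 15 of 478 cells (3.14%, or 1.49% at 500 UMIs). The 3 DPI over uninjured ratio was 5.75 (4.03 to 8.41). Mesenchymal markers summed to 5237 CPM in 3 DPI and 4541 CPM in uninjured Schwann-like cells, and the 7 Schwann markers to 3481 and 11046 CPM.

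The mesenchymal classes also held more Tnfrsf12a at 3 DPI. Endoneurial-like cells went from 16.9 CPM (10 to 26.7, 18 UMIs) in uninjured nerve to 149 CPM (130 to 169, 231 UMIs) at 3 DPI, with 4.79 CPM and 19.4 CPM in the neonatal FACS and beads libraries. The cells with a UMI were 12 of 417 (2.88%) in uninjured nerve and 101 of 283 (35.7%) at 3 DPI, and at 500 UMIs 0.642% and 6.24%. This ratio, 8.81 (5.45 to 15.1), was the highest of the members in the 5 classes compared. Epineurial/perineurial-like cells held 54.7 CPM (41.2 to 71.2) in uninjured nerve and 117 CPM (106 to 129) at 3 DPI, a 2.14-fold ratio (1.61 to 2.89). At 3 DPI this class included 323 cells led by Dlk1 (118 CPM) and 157 dividing cells led by Top2a (157 CPM). These were neither epineurial-like nor perineurial-like, and uninjured nerve had no such cluster. The 3 DPI epineurial-like clusters led by Pi16 and Inmt were at 63.8 CPM (45.4 to 87.2) and 84.1 CPM (61.6 to 112). An uninjured epineurial-like cluster, led by Sfrp4, was at 66.6 CPM (48.7 to 88.8). The part of this mixture in the ratio was not tested. Endothelial-like cells held 34.8 to 44.7 CPM in the 4 libraries, with overlapping intervals.

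Among Schwann-like clusters Tnfrsf12a differed between clusters as well as libraries. In the neonatal FACS library the 445 cells with Pmp2 and Ncmap, genes of myelinating cells, among their leading genes held 12.6 CPM (6.06 to 23.2), against 85.5 CPM (67.6 to 107) in the 454 cells led by Pmel, Ttyh1 and Ednrb. The dividing cells led by Ube2c and Top2a held 116 CPM (81.1 to 162). In the neonatal beads library the 506 cells led by Cdkn1c, Ntm and Pou3f1 held 23.3 CPM (13.6 to 37.3) and the 2266 cells led by Scn7a 179 CPM (161 to 198). In uninjured nerve the 81 cells with Ncmap and Prx among their leading genes held 77.9 CPM (33.6 to 153) and the 280 others 89.0 CPM (59.2 to 129), with overlapping intervals, so the low level of the neonatal Pmp2 cluster was not met in the adult Ncmap cluster.

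**Figure D2:**
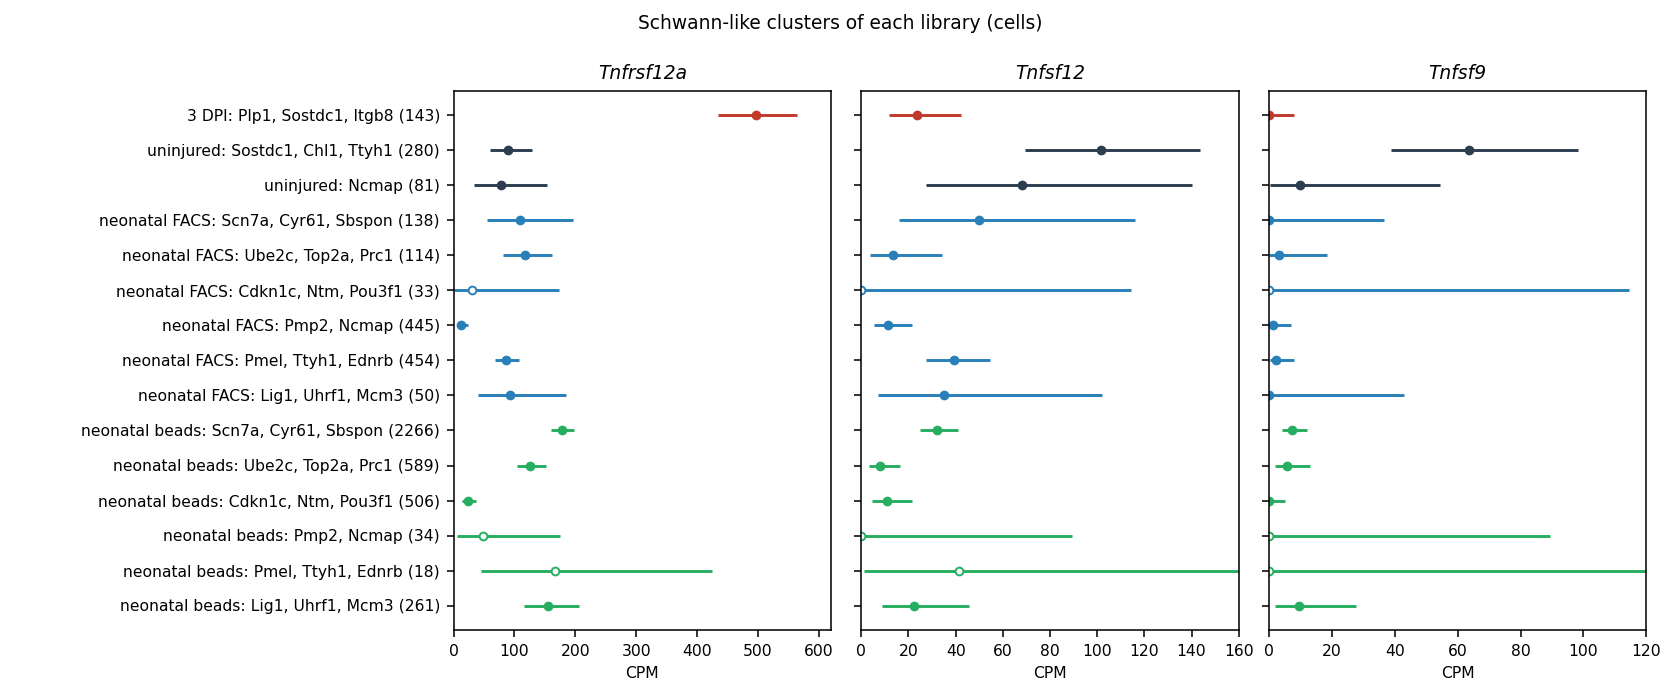
CPM of Tnfrsf12a, Tnfsf12 and Tnfsf9 in each Schwann-like cluster (rows, with leading genes other than myelin markers, and cells), coloured by library (red 3 DPI, dark uninjured, blue neonatal FACS, green neonatal beads); points are values, lines exact Poisson 95% intervals cut at the axis, and open points clusters under 50 cells. Tnfrsf12a is at 496 CPM at 3 DPI and at 12.6 CPM in the Pmp2 cluster of the FACS library, while Tnfsf9 is at 63.6 CPM in the uninjured Sostdc1 cluster and at 0 at 3 DPI.

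Tnfsf9, which codes for 4-1BBL, was sparse, with 63, 59, 19 and 31 UMIs in the kept cells of the 3 DPI, uninjured, neonatal FACS and neonatal beads libraries. Schwann-like cells of uninjured nerve held 21 UMIs in 17 of 361 cells (4.71%, 2.77% to 7.43%), or 50.3 CPM (31.2 to 76.9). At 3 DPI 0 of 143 Schwann-like cells held one, which allows a share of up to 2.10% and up to 6.47 CPM. The neonatal Schwann-like cells held 1.80 CPM (0.490 to 4.61) in the FACS and 5.73 CPM (3.63 to 8.59) in the beads library. Uninjured Schwann-like cells therefore stood above all 3 other libraries. Endothelial-like cells of uninjured nerve held Tnfsf9 in 2 of 420 cells (0.476%) at a median of 1872 UMIs, deeper than the 983 of Schwann-like cells, and at 500 UMIs the shares were 2.46% in Schwann-like and 0.0973% in endothelial-like cells.

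Of those 21 UMIs, 20 were in the 280 cells led by Sostdc1, Chl1 and Ttyh1 (63.6 CPM, 38.8 to 98.2) and 1 in the 81 cells of the Ncmap cluster (9.73 CPM, 0.246 to 54.2), with overlapping intervals. Uninjured endoneurial-like cells held 24.4 CPM (15.9 to 35.8), so Schwann-like cells were 2.06-fold (1.10 to 3.81) above them. VSM/pericyte-like cells held 30.4 CPM (12.2 to 62.5) at 3 DPI and 23.8 CPM (8.75 to 51.9) in uninjured nerve, on 7 and 6 UMIs. In the 38 immune-like cells of the neonatal beads library 4 UMIs gave 101 CPM (27.5 to 259).

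Tnfsf8, which codes for CD30L, was the rarest member, with 26, 4, 3 and 3 UMIs in the 4 libraries in the same order, and in no class of at least 50 cells did it reach 2% and 3 cells together. At 3 DPI 22 of the 26 UMIs (84.6%) were in epineurial/perineurial-like cells, in 10 of 919 cells (1.09%, 0.523% to 1.99%), or 6.20 CPM (3.89 to 9.39). In uninjured nerve that class held 2 UMIs (1.99 CPM, 0.241 to 7.19). The intervals overlap, and the 3.12-fold ratio has an interval of 0.766 to 27.3. The 2 uninjured UMIs of this class were both in the 67 perineurial-like cells.

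Tnfrsf1a, which codes for the death domain receptor TNFR1, was found in every class. Endothelial-like cells held 360 CPM (325 to 397) at 3 DPI, 278 CPM (251 to 308) in uninjured nerve, 155 CPM (118 to 200.4) in the neonatal FACS and 186 CPM (161 to 215) in the neonatal beads library. Adult levels were above neonatal ones with no overlap. VSM/pericyte-like cells came next at 243, 183 and 122 CPM in the 3 libraries cleared with beads (3 DPI, uninjured, neonatal), with endothelial-like cells 1.48-fold (1.12 to 2), 1.52-fold (1.12 to 2.12) and 1.52-fold (1.13 to 2.07) above them. In the FACS library VSM/pericyte-like cells led at 197 CPM (149 to 256), 1.27-fold (0.866 to 1.87) above endothelial-like cells, an order that the intervals do not fix.

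Schwann-like cells had the lowest Tnfrsf1a level of the classes with at least 50 cells in each library, at 99.2 CPM (72.6 to 132), 57.5 CPM (36.9 to 85.6), 28.8 CPM (22.2 to 36.8) and 35.8 CPM (30.2 to 42.2). At 3 DPI this overlapped immune-like cells at 105 CPM (80.1 to 135). The share of cells with a Tnfrsf1a UMI at 3 DPI was 46.6% in endothelial-like and 23.8% in Schwann-like cells, and at 500 UMIs 13.2% and 5.64%. Within uninjured endothelial-like cells the 123 cells led by Darc, Selp and Lrg1, genes of venules, held 446 CPM (391 to 506), against 209 CPM (162 to 266) in the cells led by Rbp7 and 141 CPM (109 to 180) in those led by Slco1a4. The Darc cluster was above both others, and in all 3 the receptor was present.

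Tnfrsf1b, which codes for TNFR2, was highest in immune-like cells where that class had at least 50 cells. At 3 DPI 74 of 478 immune-like cells held a UMI (15.5%, 12.4% to 19.0%) at 163 CPM (132 to 199), and in the FACS library 16 of 80 (20%, 11.9% to 30.4%) at 97.6 CPM (57.8 to 154). These levels were 3.96-fold (2.76 to 5.77) and 12.2-fold (3.55 to 64.5) those of endothelial-like cells, the next class in both. Schwann-like cells held a UMI in 2 of 143 cells (1.40%) at 3 DPI and at 500 UMIs in 0.163%, against 7.71% of immune-like cells. Endothelial-like cells held 41.2 CPM (30.1 to 54.9) at 3 DPI, 22.6 CPM (15.2 to 32.2) in uninjured nerve, 8.02 CPM (1.65 to 23.4) in the FACS and 6.82 CPM (2.74 to 14.1) in the beads library. The uninjured Darc cluster again held the most, 41.4 CPM (25.9 to 62.6), against 9.37 CPM (1.93 to 27.4) and 10.9 CPM (3.53 to 25.4) in the Rbp7 and Slco1a4 clusters, the first of which overlaps it.

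The immune subclusters that held Tnf also held its receptor. In the 3 DPI immune-like cells Tnfrsf1b was at 261 CPM (179 to 366) in the Cxcl3 cluster, 180 CPM (124 to 253) in the Ly86 cluster and 166 CPM (107 to 247) in the Fabp5 cluster, which the intervals do not separate. It was at 51.7 CPM (14.1 to 132) in the Gzma cluster, which overlaps the Ly86 and Fabp5 clusters, and at 19.9 CPM (0.504 to 111) in the Igkc cluster, which overlaps the Fabp5 cluster. Tnfrsf1a ran from 64.6 to 158 CPM over the 5 subclusters, with overlapping intervals. Tnfsf12 was at 166 CPM (107 to 247) in the Fabp5 cluster and 12.9 CPM (0.327 to 71.9) in the Gzma cluster.

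**Figure D3:**
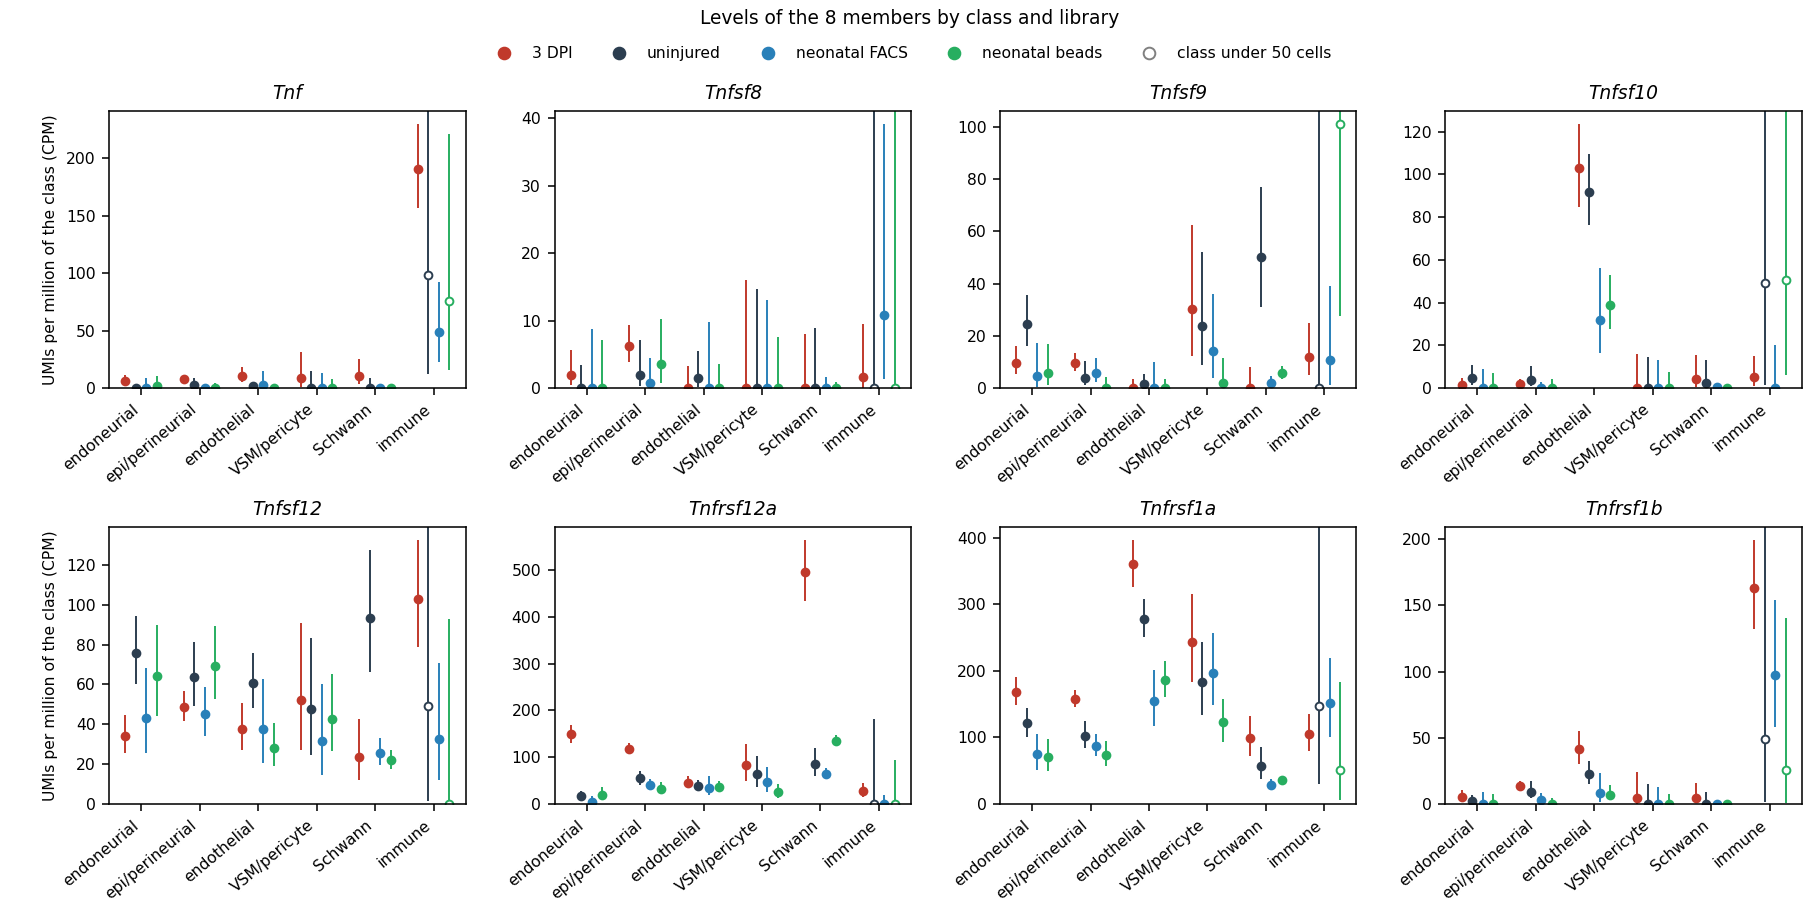
CPM of each member (panels) by class (x axis) in the 3 DPI (red), uninjured (dark), neonatal FACS (blue) and neonatal beads (green) libraries, with exact Poisson 95% intervals cut at the axis and open points for classes under 50 cells. Tnf and Tnfrsf1b stand high in immune-like cells, Tnfsf10 and Tnfrsf1a in endothelial-like cells, and Tnfrsf12a at 496 CPM in 3 DPI Schwann-like cells.

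To ask which members differed after injury, each class with at least 50 cells in both adult libraries was compared for genes with at least 20 UMIs over both, giving 23 pairs of member and class. A ratio of 3 or more in either direction was the size named, as a description. Over all genes tested the median ratio was between 1.02 and 1.17 by class, so ratios near these values are at the level of the typical gene. In Schwann-like cells 1 of 4 members was at least 3-fold higher (Tnfrsf12a, 5.75), against 9.23% of 6991 genes. In the same cells 2 of 4 were at least 3-fold lower, against 7.35% of genes: Tnfsf12 was 3.94-fold lower (1.98 to 8.53) on 11 against 39 UMIs, and Tnfsf9 at least 7.78-fold lower, with 0 against 21 UMIs and the limit of 3 UMIs in its place. The exact 95% limit for Tnfsf9 is 5.79-fold, and with classes from the markers of each cell its ratio was at most 0.217. The fourth, Tnfrsf1a, had a ratio of 1.73 (1.03 to 2.95).

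In endoneurial-like cells 1 of 4 members was at least 3-fold higher (Tnfrsf12a), against 7.86% of 9646 genes, and 0 of 4 at least 3-fold lower, against 3.69%. Tnfsf12 there had a ratio of 0.449 (0.311 to 0.643) and Tnfsf9 of 0.396 (0.195 to 0.776), both below 1. In epineurial/perineurial-like cells 1 of 7 was at least 3-fold higher (Tnfsf8, with the wide interval given above), against 8.23% of 11411 genes, and 0 of 7 at least 3-fold lower, against 2.88%. Counts of 0 to 2 over 3 to 7 members are too few to set the group apart from these percentages, and the values of single members are what the comparison gives. After division by the median ratio of all genes with at least 50 UMIs, Tnfsf8 was at 2.65 and Tnfsf9 in endoneurial-like cells reached 0.333, while Tnfrsf12a kept ratios of 5.06 and 7.41 in Schwann-like and endoneurial-like cells.

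In endothelial-like cells 0 of 5 members were at least 3-fold higher, against 3.1% of 9805 genes, and 0 of 5 at least 3-fold lower, against 2.08%. Tnfsf10 had a ratio of 1.12 (0.861 to 1.46) and Tnfrsf1a of 1.29 (1.12 to 1.49). Tnfrsf1b, at 1.82 (1.13 to 2.99), lay above 1 and Tnfsf12, at 0.617 (0.414 to 0.906), below 1. The 3 DPI class was 1 cluster, led by Plvap, Lrg1 and Pecam1, while the uninjured class joined clusters that differed in Tnfrsf1a and Tnfrsf1b. For both receptors the level given above for the uninjured Darc cluster was not below that of the 3 DPI class. The part of this mixture in the ratios was not tested. In VSM/pericyte-like cells 0 of 3 were at least 3-fold higher, against 5.33% of 4392 genes, and 0 of 3 at least 3-fold lower, against 4.71%, and all 3 intervals included 1. The members tested had a median ratio of 0.921 (endoneurial-like), 2.14 (epineurial/perineurial-like), 1.14 (endothelial-like), 1.30 (VSM/pericyte-like) and 0.989 (Schwann-like).

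**Figure D4:**
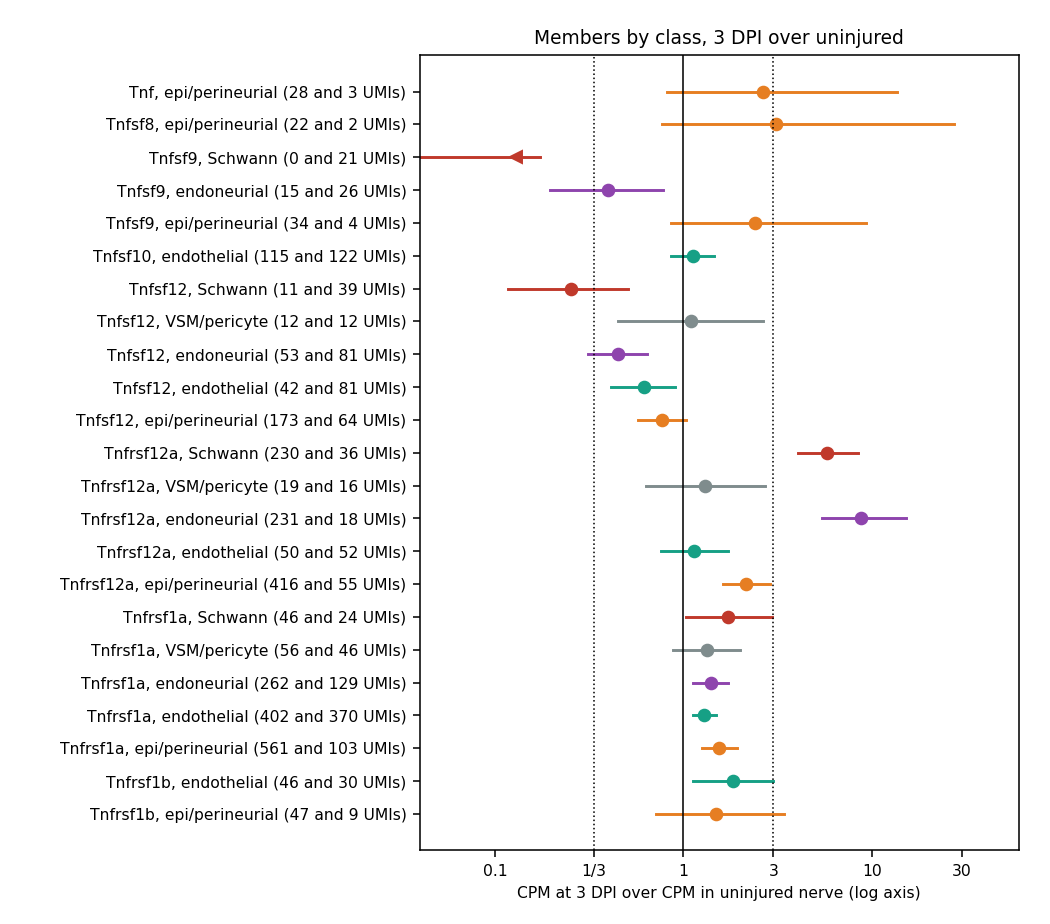
Ratio of CPM at 3 DPI to CPM in uninjured nerve (log axis) for the 23 pairs of member and class, coloured by class, with exact 95% intervals; UMIs at 3 DPI and in uninjured nerve are in parentheses, dotted lines mark 3-fold either way, and the triangle is an upper limit. Tnfrsf12a in endoneurial-like (8.81) and Schwann-like cells (5.75) lies wholly to the right of the 3-fold line, and Tnfsf9 in Schwann-like cells wholly to the left.

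The age comparison was read in each neonatal library apart, because the preparations differ in age range and isolation. Tnfsf10 in endothelial-like cells was below the uninjured adult level in both, with ratios of 0.349 (0.176 to 0.633) in the FACS and 0.425 (0.289 to 0.611) in the beads library. Tnfrsf1a in the same cells had ratios of 0.557 (0.415 to 0.736) and 0.669 (0.559 to 0.798). In Schwann-like cells Tnfsf12 had ratios of 0.274 (0.179 to 0.423) and 0.234 (0.159 to 0.351), and Tnfsf9 of 0.0358 (0.00892 to 0.106) and 0.114 (0.0602 to 0.216). Tnfrsf12a in Schwann-like cells went to opposite sides of 1, at 0.746 (0.514 to 1.11) in the FACS and 1.57 (1.12 to 2.27) in the beads library, though the FACS interval includes 1. The 2 libraries hold different mixtures of Schwann-like clusters, as the plot of Schwann-like clusters shows. The part of this mixture, of age range or of isolation in the ratios was not tested.

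The rest of the pathway was read from 4 lists. Of 13 other superfamily ligands, 3 were found in at least 2% and 3 cells of a class at 3 DPI (Ltb, Eda and Tnfsf14) and 1, Eda, in each other library. Ltb, which codes for lymphotoxin β, and Tnfsf14 (LIGHT) were at 89.3 CPM (66.7 to 117) and 27.5 CPM (15.7 to 44.6) in 3 DPI immune-like cells. Eda, which codes for ectodysplasin, had a 3 DPI over uninjured ratio of 0.446 (0.261 to 0.749) in endoneurial-like cells, the 1 pair tested there. In epineurial/perineurial-like cells 2 were tested with a median ratio of 0.329. Tnfsf15 was the 1 at least 3-fold lower (0.218, 0.0856 to 0.538), where 2.88% of all genes were.

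Of the 24 other receptors listed in the matrices, 16, 10, 10 and 8 were found in the 3 DPI, uninjured, neonatal FACS and neonatal beads libraries. The count at least 3-fold higher at 3 DPI was 3 of 7 (endoneurial-like), 3 of 8 (epineurial/perineurial-like), 0 of 7 (endothelial-like), 0 of 2 (VSM/pericyte-like) and 1 of 2 (Schwann-like). Of all genes 7.86%, 8.23%, 3.1%, 5.33% and 9.23% were at least 3-fold higher in the same classes, in that order. The median ratios of the receptors tested were 2.29, 2.47, 0.628, 1.56 and 4.19. Ngfr, the low affinity neurotrophin receptor p75NTR and a marker of non-myelinating and denervated Schwann cells, was at 103 CPM in uninjured and 759 CPM in 3 DPI Schwann-like cells (7.37-fold, 5.36 to 10.4). Tnfrsf23, a decoy receptor for TRAIL, was at 45.7 CPM against 1.88 CPM in endoneurial-like cells (24.4-fold, 6.50 to 205, on 71 against 2 UMIs) and 5.86-fold higher (1.91 to 29.2) in epineurial/perineurial-like cells. Tnfrsf11b, which codes for the soluble receptor osteoprotegerin, was 4.91-fold higher (2.52 to 10.9) in epineurial/perineurial-like cells. The others past 3-fold were Tnfrsf10b and Tnfrsf26 in endoneurial-like and Eda2r in epineurial/perineurial-like cells, named after their values were seen. In endothelial-like cells 2 of 7 were at least 3-fold lower, against 2.08% of all genes. They were the death receptor gene Fas, at 34.0 CPM against 107 CPM (0.318, 0.216 to 0.458), and Tnfrsf19, also named after its value was seen (0.105). None of the receptors tested was at least 3-fold lower in the other 4 classes. There 3.69% (endoneurial-like), 2.88% (epineurial/perineurial-like), 4.71% (VSM/pericyte-like) and 7.35% (Schwann-like) of all genes were.

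Of 24 signalling genes (adaptors, kinases, NF-κB subunits and the sheddases), 24, 24, 23 and 22 were found in the libraries in the same order. At least 3-fold higher were 1 of 21 in endoneurial-like cells (the NF-κB subunit gene Nfkb2, 3.18, 1.64 to 6.77), against 7.86% of all genes, and none of the 23, 23, 9 and 13 tested in the epineurial/perineurial-like, endothelial-like, VSM/pericyte-like and Schwann-like cells, against 8.23%, 3.1%, 5.33% and 9.23%. Rela was the 1 gene at least 3-fold lower, in VSM/pericyte-like cells (0.323, 0.127 to 0.732), where 4.71% of all genes were. The median ratios were 1.37, 1.25, 1.22, 0.840 and 0.863 in the 5 classes. Adam17, whose product sheds TNF, was at 149 CPM (119.7 to 184) in 3 DPI immune-like cells.

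Of 16 known NF-κB response genes, all 16 were found in each adult library, 14 in the FACS and 13 in the beads library, and after injury they did not move one way. The counts at least 3-fold higher and lower were, of 16 tested, 2 and 3 (endoneurial-like), 3 and 0 (epineurial/perineurial-like) and 1 and 2 (endothelial-like), and, of 9 tested, 1 and 4 (VSM/pericyte-like) and 2 and 4 (Schwann-like), with median ratios of 0.927, 1.89, 0.9, 0.334 and 0.391. Of all genes 7.86%, 8.23%, 3.1%, 5.33% and 9.23% were at least 3-fold higher and 3.69%, 2.88%, 2.08%, 4.71% and 7.35% at least 3-fold lower in the same classes, in that order. Ccl2, a chemokine for monocytes, was higher in all 5 classes, from 3.82-fold (1.70 to 9.70) in VSM/pericyte-like cells to 14.0-fold (12.1 to 16.3) in endoneurial-like and 14.9-fold (11.0 to 20.9) in epineurial/perineurial-like cells. Zfp36, which codes for an RNA-binding protein that destabilizes Tnf mRNA, was lower in all 5, from a ratio of 0.498 (0.452 to 0.548) in epineurial/perineurial-like to 0.101 (0.0838 to 0.12) in Schwann-like cells. Tnfaip2 was 11.3-fold higher (2.90 to 97.4) in endoneurial-like cells, and the NF-κB inhibitor gene Nfkbia had a ratio of 0.325 (0.256 to 0.410) in Schwann-like cells. Ccl7, a second monocyte chemokine, was 3.16-fold (2.55 to 3.97) and 3.15-fold (1.40 to 8) higher in epineurial/perineurial-like and Schwann-like cells. The neutrophil chemokine gene Cxcl1 was at 412 CPM against 1995 CPM in endoneurial-like cells (0.207, 0.189 to 0.226), and Vcam1, named after its value was seen, also had a ratio of 0.207 there.

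Genes whose pattern over classes and libraries was most like that of a member were sought by Pearson r of log2(CPM + 10) over 22 columns of class and library, as a description over columns that share libraries. Closest to Tnfsf10 were Grrp1 (r = 0.976), Pkn3 (0.97) and Spns2 (0.97). Closest to Tnfrsf1b were Hcls1 (0.958), Ptafr (0.953) and Syk (0.951), and closest to Tnfrsf1a were Clec2d (0.884), Ifi203 (0.881) and Myo1c (0.858). Tnfrsf12a was nearest to Lmna (0.856), and Mllt3 was also close (0.777), while Tnfsf12 was nearest to Birc3 (0.712), Cyp4f13 (0.711) and Rab43 (0.709). Tnf, Tnfsf8 and Tnfsf9 had under 200 UMIs over these columns and were not matched.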

How the data were processed

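Drop-seq libraries were analysed from 1 injured (3 DPI), 1 uninjured and 2 neonatal preparations. The authors deposited digital expression matrices of raw UMI counts per gene and barcode, not normalized, made on mm10 per the labels; for the aligner version, gene annotation and strand setting, values were not given in the sources used here. Libraries at 9 DPI were not analysed here. Barcodes with fewer than 200 genes, over 10% mitochondrial or over 5% hemoglobin UMIs were removed, then those above the 95th percentile of the scrublet doublet score (scanpy 1.11.5, Python 3.11.15). Counts were normalized with scran 1.30.0 and clustered in Seurat 5.3.0 (R 4.3.3) from the 2000 most variable genes (20 principal components, resolution 0.4), the neonatal libraries together, keeping superfamily, mitochondrial and hemoglobin genes out of the variable genes. Libraries held 4513814 to 8123103 UMIs.

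Clusters were named from marker lists into 6 classes. The score thresholds, the joining of epineurial, perineurial and other mesenchymal clusters, and leaving immune subclusters unnamed were chosen after seeing the clusters. The members and lists were chosen with earlier results of these data known. Levels are UMIs of a gene per 1000000 UMIs of a class (CPM) with exact Poisson intervals, shares have Clopper-Pearson intervals, and ratios exact conditional intervals (scipy 1.17.1), at 95%. A count of 0 was read with a limit of 3 counts. Shares were repeated with cells thinned to 500 UMIs, leaving out shallower cells (43 to 955 cells a library). The ratio script was tested on simulated data. All members were named. Of the lists, the 6 genes with the highest CPM and those past 3-fold were named, at most 8 each, and a pattern match needed 200 UMIs. Marker lists other than those given in the text were used for naming only. Alternatives were a minimum of 500 genes, no doublet removal, mitochondrial UMIs at most 5%, a resolution of 0.8, library size normalization per 10000, classes from the markers of each cell, the mean over cells, at least 50 UMIs, and scaling by the median ratio. Some genes among those the naming rules picked are not reported here. Promoter windows and gene positions are of GRCm38.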

Additional observations from a re-analysis of the deposited data

Results flagged for a closer look

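The unnamed 3 DPI cluster lies outside the class comparisons, and 2 members were found in it above the 7.5% share that a count of 0 allows in 40 cells. Tnf was found in 11 of its 40 cells (27.5%, 14.6% to 43.9%), with 58 UMIs, 2640 CPM (2005 to 3413) and 25.8% of all Tnf UMIs of kept 3 DPI cells. The CPM interval treats UMIs as independent, though they came from 11 cells. The mean over cells was 1556 CPM, below that interval. Tnfrsf1a was found in 6 of 40 cells (15.0%, 5.71% to 29.8%), with 8 UMIs and 364 CPM. In this cluster 6 of 6 neutrophil markers were in at least 5% of cells, and they summed to 51807 CPM against 131 CPM in immune-like cells and 28.0 to 30.9 CPM in endoneurial-like, endothelial-like and Schwann-like cells. Of the 8 immune markers 5 were in at least 5% of cells and 2 were at 0, and 4 of 5 mesenchymal markers were in at least 5%. Its median was 442 UMIs against 1821 for the library, and it was left without a name. No other library had such a cluster, but the neutrophil markers summed to 4721 CPM in the 19 immune-like cells of uninjured nerve and 48577 CPM in the 38 of the neonatal beads library.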

How the results depend on the processing

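Of 375 values recomputed under the alternatives, 339 stayed within their interval or, for counts, close to the main count. A count of 2 against 3, or of 3 against 2, was taken as close. A further 34 values moved more and 2 changed side of 1. The reversed ratios were Tnfrsf1a in VSM/pericyte-like cells, 0.914 as a mean over cells against 1.33, and Tnfsf9 in epineurial/perineurial-like cells, 0.724 with classes from the markers of each cell against 2.41. The Tnf share of 3 DPI immune-like cells was 6.45% at 500 UMIs and 14.6% with at least 500 genes, and its level was 245 CPM with at least 500 genes, 230.5 CPM with classes from the markers of each cell and 280 CPM with the unnamed cluster added, an alternative chosen after seeing the data. Pairs at least 3-fold lower numbered 2, and 1 with at least 500 genes, 1 with classes from the markers of each cell and 1 with at least 50 UMIs, since Tnfsf9 in Schwann-like cells then fell under the UMI minimum. Median scaling gave 2 higher and 3 lower, with Tnfsf9 in endoneurial-like cells at 0.333. Pairs at least 3-fold higher numbered 3, and 5 with classes from the markers of each cell, where Tnfsf9 in Schwann-like cells was at most 0.217. Tnfsf8 in epineurial/perineurial-like cells left the 3-fold group with median scaling (2.65), no doublet removal (2.14) and mitochondrial UMIs at most 5% (2.53). Over the alternatives Tnfrsf12a ranged from 4.81 to 6.01 in Schwann-like and 7.41 to 9.52 in endoneurial-like cells, and Tnfsf12 in Schwann-like cells from 0.217 to 0.296. No paired analysis was possible because each condition and preparation has 1 library, which also limits every comparison to these libraries. Depth limits Tnfsf8, Tnfsf9 and Tnf outside immune cells, where a class held 0 to 34 UMIs.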

Other observations

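The mesenchymal clusters at 3 DPI differed in which members they held. Tnfrsf12a was at 157 CPM (136 to 181) in the 157 dividing cells led by Top2a, Cenpe and Prc1 and at 118 CPM (99.3 to 139.99) in the 323 cells led by Dlk1, C1qtnf3 and H19, against 63.8 CPM (45.4 to 87.2) in the 266 cells led by Pi16, Clec3b and Cxcl13. The 173 cells led by Inmt, Sfrp5 and Comp were at 84.1 CPM (61.6 to 112), which overlaps the Dlk1 and Pi16 clusters. Tnfsf12 was at 25.0 CPM (17.0 to 35.5) in the Top2a cluster, 70.3 CPM (50.9 to 94.8) in the Pi16 cluster and 93.2 CPM (69.4 to 123) in the Inmt cluster. Tnfrsf1a was between 150 and 190 CPM in these 4 clusters, with overlapping intervals. Of the Tnfsf8 UMIs, 9 were in the Inmt cluster, from 2 of its 173 cells.

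In the uninjured nerve the 67 perineurial-like cells held no Tnfrsf12a UMI, where 3 UMIs would be 22.3 CPM, while the 284 epineurial-like cells led by Sfrp4, Inmt and Comp held 66.6 CPM (48.7 to 88.8). In both neonatal libraries perineurial-like cells held it, at 24.1 CPM (14.3 to 38.1) in the FACS and 32.3 CPM (20.3 to 48.9) in the beads library, both intervals holding that limit, so no difference is shown. Tnfrsf1a in the neonatal FACS library was at 56.2 CPM (40.5 to 76.0) in perineurial-like and 133 CPM (103 to 170) in epineurial-like cells, and in the beads library at 55.8 CPM (39.5 to 76.6) and 147 CPM (95.3 to 217).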
